A study of Homo sapiens with 18 samples.

Results

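RNA of NCI-H211 cells was compared between 2 stable lines after the endogenous POU2F3 gene had been targeted: cells that carried a wild-type POU2F3 cDNA which the guide cannot cut (WT) and cells that carried an empty vector (EV). Both lines expressed Cas9 and had received lentivirus with a guide against POU2F3 (sgPOU2F3), and RNA was taken at day 5. The libraries were chosen by their labels, 3 per group, which makes 6 of the 18 libraries of the series. Genes were kept when their mean over these 6 libraries was at least 1 TPM, a unit that scales transcripts for their length and for the library's total, which held for 12944 of 19744 named genes. At that limit, NRXN2 was the last gene inside with a mean of 1.0000 TPM and LOC102724720 the first outside with 0.9991 TPM. The same 2 lines infected with a control guide (sgRosa), 3 libraries each, served to show how far EV and WT cells differed without loss of the endogenous gene. All 4 groups share the parental line, Cas9, a stable vector and the day of sampling. A further line, with a mutant POU2F3 cDNA (L191A) under both guides, entered only the scaling of the libraries. Replicates were separate infections of 1 line with the same guide, so p-values measure the spread between infections, not between independently made lines. Whether a line is a clone or a mixed pool is not given in the sources used here.

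NCI-H211 is an established human small cell lung cancer line of the subtype that expresses tuft cell genes. Tuft cells are chemosensory epithelial cells that use the signalling chain of taste cells, in which bitter or sweet receptors act through the G protein gustducin, phospholipase C and the cation channel TRPM5. POU2F3 is the transcription factor that specifies them. It binds the DNA octamer through a bipartite POU domain and recruits the coactivators POU2AF2 and POU2AF3, small proteins that join it on the DNA. The comparison asks which part of the expression of the targeted cells depends on a POU2F3 protein made from the cDNA.

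1 library stood apart. WT replicate 1 under sgPOU2F3 held 33.14% of its TPM in cytosolic ribosomal protein genes, against 16.03% to 26.77% in the other 5, and 44.26% in its 100 highest genes, against 25.96% to 36.39%. Its median over the genes tested was 12.98 TPM, against 18.92 to 23.99 TPM. Its log2 values fell with transcript length relative to its 2 replicates, by 0.21 per doubling (slopes of -0.119 to 0.161 in the other 5). Levels below are therefore scaled TPM, the deposited TPM divided by the median ratio of the library to all 18 libraries (0.72 for this library, 0.97 to 1.177 for the other 5). Even after scaling, a gene of this library lay a median of 0.378 on the log2 scale from the mean of its 2 replicates, against 0.105 to 0.258 in the other 5. Each result is given with and without it where that matters. TPM keeps no record of sequencing depth, so counting error is unknown. In bulk RNA, fewer cells with a gene on and less RNA per cell cannot be told apart.

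POU2F3 RNA was higher in every WT library than in every EV library under its guide. Its levels were 260, 270 and 266 scaled TPM in EV cells and 1577, 1270 and 1008 in WT cells. The means were 265 ± 4.65 and 1285 ± 285 (SD, n = 3), a log2 difference of 2.25 with a standard error of 0.21 (limma, Benjamini-Hochberg adjusted p = 0.000222), and 2.09 without WT replicate 1 (adjusted p = 1.25e-05). On the deposited scale, EV libraries held 253, 318 and 274 TPM and WT libraries 1136, 1276 and 1049 TPM. Under sgRosa the mean was 627 scaled TPM in EV cells and 1449 scaled TPM in WT cells. The log2 difference between the lines was 1.20 there (adjusted p = 0.000577) and thus 1.05 larger under sgPOU2F3 (adjusted p = 0.0079). The values do not separate RNA of the cut endogenous gene from RNA of the cDNA, and a cut gene can still be transcribed. POU2F3 lies at chr11:120236640-120319944 on the plus strand (GRCh38).

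Its coactivators differed in the same direction by smaller amounts. POU2AF2, listed under its older symbol C11orf53 (chr11:111245805-111286401), was at 293, 239 and 272 scaled TPM in EV cells and 653, 484 and 500 in WT cells. The groups did not overlap, and the log2 difference was 1.01 ± 0.18 (SE, adjusted p = 0.00594). Under sgRosa the lines were at 520 and 517, a log2 difference of -0.01 (adjusted p = 0.974), and the difference between guides was 1.02 (adjusted p = 0.00327). POU2AF3, listed as COLCA2, next to it at chr11:111298555-111308735, was at 5.59, 6.15 and 7.14 in EV cells and 9.57, 12.5 and 9.74 in WT cells (log2 difference 0.66 ± 0.15, adjusted p = 0.0157), again without overlap. POU2F1, a broadly expressed octamer factor, did not pass (5.73 in EV, 4.69 in WT, adjusted p = 0.311). The lymphoid octamer factor POU2F2 and its coactivator POU2AF1 were below the limit of 1 TPM and were not tested.

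**Figure D1:**
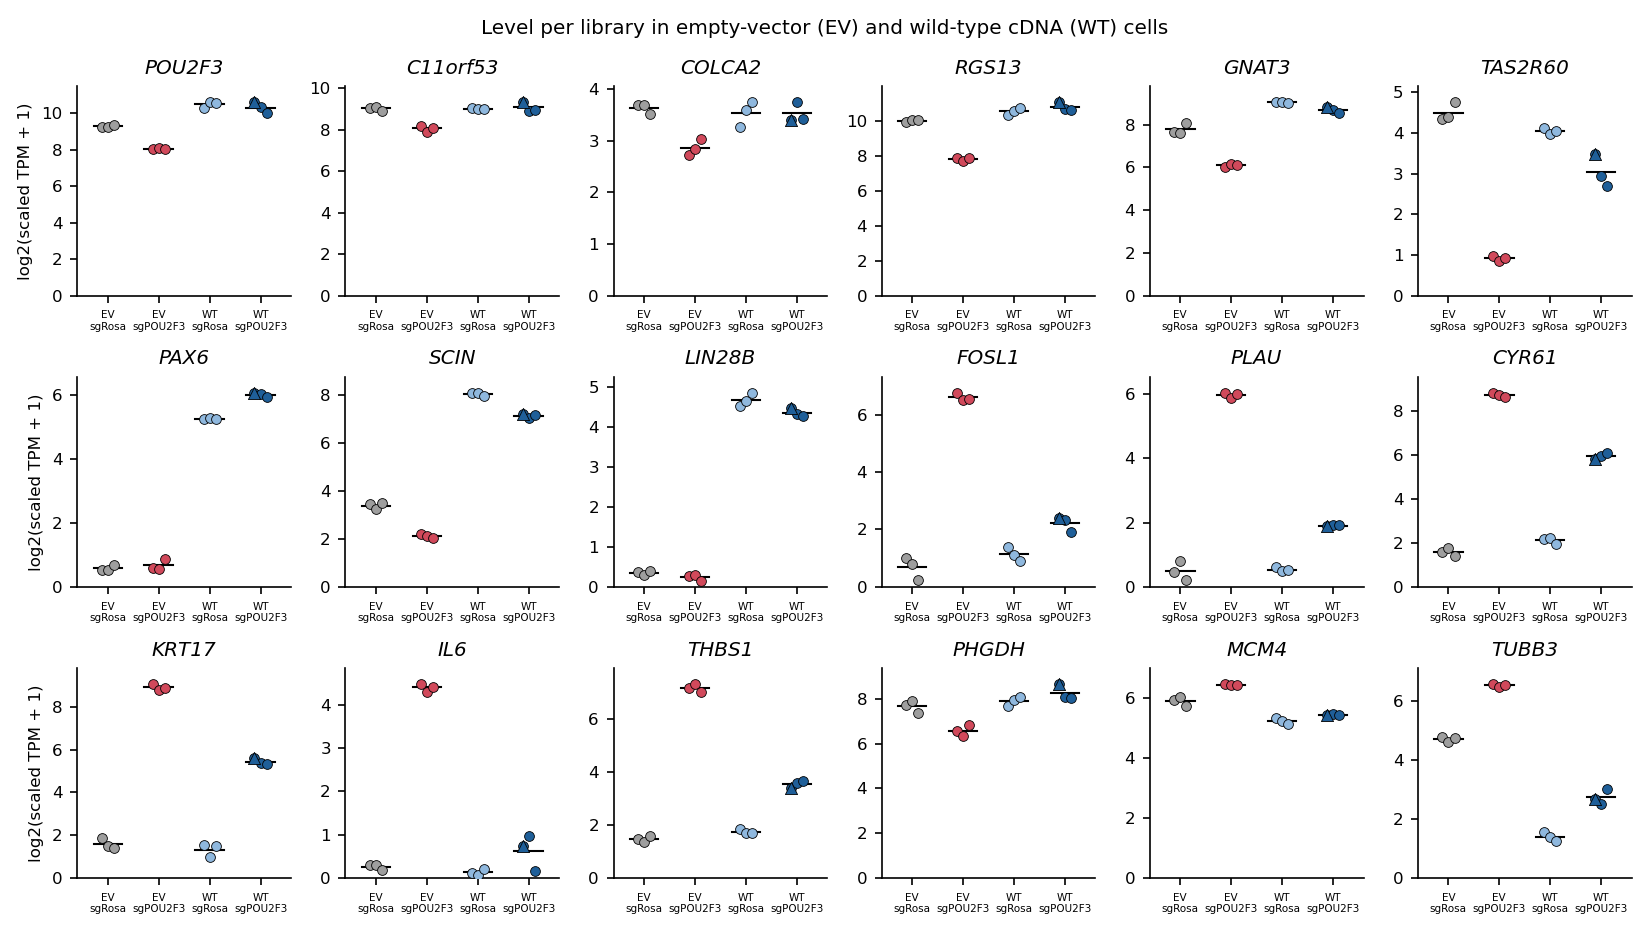
Level of 18 genes in each of the 12 EV and WT libraries, as log2(scaled TPM + 1). Each symbol is 1 library, the bar is the group mean, and the triangle marks WT replicate 1 under sgPOU2F3. POU2F3, RGS13 and GNAT3 are lowest in EV cells under sgPOU2F3, FOSL1, PLAU and KRT17 are highest there, and PAX6, SCIN and LIN28B are high in WT cells under both guides.

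Across the transcriptome, 3660 genes (28.3% of those tested) differed between WT and EV cells under sgPOU2F3 at an adjusted p under 0.05. Of these, 1875 (14.5%) were higher and 1785 (13.8%) lower in WT cells, and the median log2 difference of all genes was -0.01. A 2-fold difference was reached by 549 of the higher genes (4.24% of all tested) and 555 of the lower ones (4.29%). Without WT replicate 1, 4980 genes passed (38.5%), of which 2475 were higher (19.1%) and 2505 lower (19.4%). 3607 of the 3660 genes passed in both fits with the same sign, 53 were lost, 1373 were gained and none changed sign. At 2-fold, the fit without that library called 536 higher (4.14%) and 453 lower (3.5%). The count was 1890, 2295 and 1883 without EV replicates 1, 2 and 3, and 2152 without WT replicate 2. On TPM as deposited, the split of called genes moved to 957 higher and 1921 lower, a scale on which the median of all genes was -0.20. No overlap between the 3 WT and the 3 EV replicates was seen for 3124 genes on the higher side (24.1% of all tested) and 3107 on the lower (24.0%), together 48.1%.

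**Figure D2:**
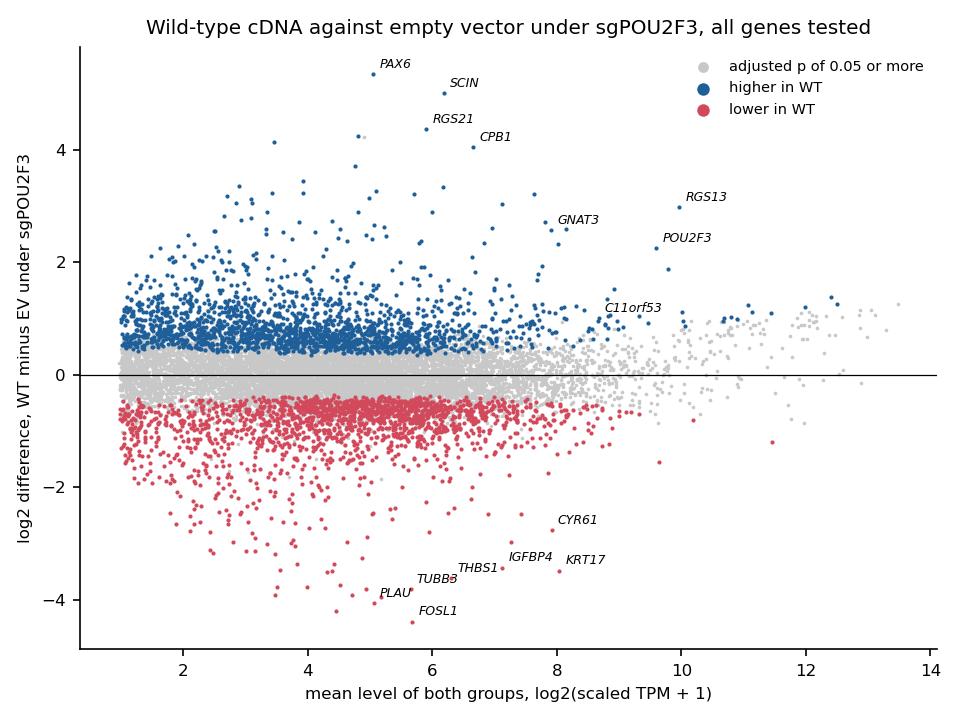
Log2 difference between WT and EV cells under sgPOU2F3 (vertical) against the mean level of both groups as log2(scaled TPM + 1) (horizontal), for the 12944 genes tested; each point is 1 gene. The 1875 genes called higher and 1785 called lower lie on both sides of 0 over the whole range of levels, and the largest differences reach 5.34 upward (PAX6) and -4.39 downward (FOSL1).

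The largest rises were led by PAX6, a homeobox factor of eye, brain and endocrine pancreas. It was at 0.494, 0.486 and 0.828 scaled TPM in EV cells and 66.4, 63.9 and 60.5 in WT cells (log2 difference 5.34 ± 0.14, adjusted p = 1.21e-06). SCIN, the actin-severing protein scinderin, was at 3.69, 3.37 and 3.14 in EV and 147, 130 and 144 in WT cells (5.01 ± 0.12). RGS21, a regulator of G protein signalling of taste cells, rose from 5.63, 3.76 and 4.21 to 135, 97.3 and 106 (4.36 ± 0.18). Genes entered the largest rises only with no overlap between the groups and a call without WT replicate 1. Neither is therefore a separate result. LIN28B, an RNA-binding protein that blocks let-7 maturation, rose from a mean of 0.184 to 19.7, and CPB1, the pancreatic carboxypeptidase B, from 10.2 to 189. AGTR1, the angiotensin II receptor, rose from 2.85 to 49.5, DLG2, a scaffold protein of synapses, from 1.80 to 52.0, and RAB27B, a GTPase of vesicle secretion, from 1.04 to 18.4. The other members of the 15 largest rises were BRINP3, SPTSSB (a subunit of serine palmitoyltransferase), VWDE, RGL1, the bitter receptor TAS2R4, FGF12 and the salivary protein gene PRH1. Log2 differences of the 15 ran from 3.22 to 5.34, and from 2.94 to 5.31 without WT replicate 1, with a largest adjusted p of 0.000273.

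All of the 15 were also called higher in WT than in EV cells under sgRosa, in libraries that the first comparison did not use, by 1.37 to 4.67 (21.0% of all genes tested were called higher there). PAX6 stood at 0.495 in EV and 37.0 in WT cells under sgRosa, LIN28B at 0.283 and 25.0, and SCIN at 9.55 and 267. For SCIN, LIN28B and TAS2R4 the difference between guides was not called (0.34, -0.21 and 0.46, adjusted p = 0.084, 0.342 and 0.43), and for RAB27B it was larger under sgRosa (-0.61, adjusted p = 0.0144). For 11 of the 15 the difference was called larger under sgPOU2F3 (14.6% of all genes tested were called upward). RGS21 was among these 11, with a difference of 2.02 under sgRosa and a further 2.34 under sgPOU2F3 (adjusted p = 1.84e-05).

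Octamer matches were read in the promoters of these genes because POU2F3 binds that motif. Windows of 250 bases before to 50 after the start site came from RefSeq (GRCh38.p14), and the motif ATGCAAAT was searched on both strands without mismatches. It was present in 1.77% of 35116 promoters in the table, in 1.39% of the 10100 matched to genes tested, in 3.9% of 410 matched to genes higher by 2-fold or more (16 promoters), and in 1.48% of 405 matched to genes lower by 2-fold or more (6 promoters). The genes named by rule and searched here were picked by size of difference or by p in these same data. Among them, 3 of 111 with a promoter in the table held the motif (2.7%), and each of the 3 was higher in WT cells. Their 250 bases before the start site are shown 5′ to 3′ on the strand of the gene, with the motif in capitals, because they are the ones among those 111 that carry the letters POU2F3 recognises.
FGF12: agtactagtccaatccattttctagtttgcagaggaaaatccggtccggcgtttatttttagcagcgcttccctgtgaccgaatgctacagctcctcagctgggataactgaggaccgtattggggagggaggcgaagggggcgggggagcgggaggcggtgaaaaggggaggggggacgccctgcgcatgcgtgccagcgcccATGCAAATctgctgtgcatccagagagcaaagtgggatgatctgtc
TAS2R5: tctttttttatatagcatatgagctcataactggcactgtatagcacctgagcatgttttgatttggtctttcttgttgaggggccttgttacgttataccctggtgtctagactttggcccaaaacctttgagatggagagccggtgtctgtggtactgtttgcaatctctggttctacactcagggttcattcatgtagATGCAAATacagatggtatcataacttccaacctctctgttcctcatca
CALCA: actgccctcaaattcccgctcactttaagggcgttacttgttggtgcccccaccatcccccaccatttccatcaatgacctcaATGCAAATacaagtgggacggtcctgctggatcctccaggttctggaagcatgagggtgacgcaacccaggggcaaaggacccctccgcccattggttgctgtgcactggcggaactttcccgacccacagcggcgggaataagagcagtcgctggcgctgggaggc
The FGF12 stretch is chr3:192727542-192727791 on the minus strand, and its match begins 46 bases before the start site (-46). The TAS2R5 stretch is chr7:141789967-141790216 on the plus strand, with the match at -49. The CALCA stretch is chr11:14972352-14972601 on the minus strand, with the match at -167. A match is a description of the letters in this window, and binding was not measured. FGF12, an intracellular regulator of sodium channels, was at 8.76, 9.36 and 9.39 scaled TPM in EV cells and 91.0, 94.0 and 96.8 in WT cells (3.22 ± 0.11, adjusted p = 3.86e-06). TAS2R5, a bitter receptor, was at 4.55, 4.45 and 4.32 in EV and 30.6, 37.4 and 38.5 in WT cells (2.74 ± 0.13, adjusted p = 1.35e-05). CALCA, which encodes calcitonin and its related neuropeptide, was at 24.6, 25.9 and 30.2 in EV and 41.6, 45.6 and 50.6 in WT cells (0.75 ± 0.14, adjusted p = 0.00608). Each was also called higher in WT cells under sgRosa, by 2.65, 2.17 and 0.69.

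Genes of tuft cells were mostly higher in WT cells. Of 34 tuft markers tested, 19 passed upward and 2 downward (14.5% and 13.8% over all genes). Their median log2 difference was 0.76 (22 upward and 2 downward, median 0.62, without WT replicate 1). RGS13, another regulator of G protein signalling, was at 236, 202 and 231 in EV cells and 2166, 1586 and 1580 in WT cells (2.98 ± 0.20, adjusted p = 5.18e-05). AVIL, the actin-bundling advillin of the tuft, was at 270, 265 and 282 in EV and 613, 516 and 472 in WT cells (0.96 ± 0.17, adjusted p = 0.00488). SH2D6, an adaptor protein, rose from a range of 4.77 to 6.70 to one of 20.1 to 24.4 (1.79, adjusted p = 0.000167). PIK3CG, a catalytic phosphoinositide 3-kinase subunit, rose from a mean of 0.544 to 11.9. In each of these 4 genes the groups were apart. VIL1, the villin of microvilli, was lower in WT cells instead, at 10.9, 12.1 and 9.41 against 49.2, 48.9 and 52.0 in EV cells (-2.12 ± 0.13, adjusted p = 3.39e-05). KIT, the stem cell factor receptor, had overlapping groups and did not pass (18.6 to 22.4 in EV, 19.0 to 25.0 in WT, adjusted p = 0.926), and both were under the 83.0 of EV cells with sgRosa. GNG13, the gustducin gamma subunit, did not pass either (log2 difference -0.07, adjusted p = 0.787), at 51.1 to 60.9 in EV and 43.3 to 61.0 in WT cells, against 273 in EV cells with sgRosa.

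The lines differed in these genes under sgRosa too, and not in the same sense. There, 13 tuft markers were higher and 17 lower in WT cells (21.0% and 20.2% over all genes), with a median of -0.25. The difference between guides was called upward for 23 of 34 (14.6% of all genes tested were called upward) and by limma downward for 0, with 3 downward at an unadjusted p under 0.05. KIT fell by 2.21 on the log2 scale in WT relative to EV cells under sgRosa (adjusted p = 1.45e-06), and VIL1 fell by 2.77 there (adjusted p = 1.15e-06). The summed level of the 34 markers was 2616 to 2897 scaled TPM in EV cells and 5874 to 8037 in WT cells under sgPOU2F3, and 6963 to 7439 in EV and 5808 to 6902 in WT cells under sgRosa. WT replicate 1 was the highest of its group in the list median, at 1.07 against 0.67 and 0.60.

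Of 22 genes of taste receptors and their signalling chain, 13 were higher in WT cells (14.5% over all genes). The median was 1.38 (16 higher, median 1.43, without WT replicate 1). By limma 0 of them were lower, also at an unadjusted p under 0.05. GNAT3, the alpha subunit of gustducin, was at 64.4, 70.7 and 69.4 in EV cells and 453, 405 and 373 in WT cells (2.57 ± 0.14, adjusted p = 2.17e-05). PLCB2, the phospholipase downstream of it, was at 81.7, 110 and 82.2 in EV and 235, 398 and 334 in WT cells (1.79 ± 0.22, adjusted p = 0.00102). TAS2R38, the receptor for bitter thioureas, was at 74.1, 77.4 and 101 in EV and 550, 431 and 315 in WT cells (2.32 ± 0.23, adjusted p = 0.000315). CALHM1, a channel that releases ATP from taste cells, rose from 1.48 ± 0.068 to 8.91 ± 0.401 (SD, n = 3; log2 difference 2.00). TRPM5 did not pass with all 6 libraries: it was at 52.1, 79.7 and 52.3 in EV and 59.2, 130 and 131 in WT cells, with WT replicate 1 inside the range of EV cells (adjusted p = 0.122). Without that replicate its log2 difference was 1.11 (adjusted p = 0.00129). Its level in WT cells stayed below the 234 of EV cells under sgRosa (log2 difference -1.21, adjusted p = 0.0404). TAS2R60 was at 0.970, 0.817 and 0.892 in EV and 10.2, 6.67 and 5.44 in WT cells (2.12, adjusted p = 0.00031), where EV cells under sgRosa held 21.7. Under sgRosa, 15 of the 22 genes were higher and 2 lower in WT cells (median 0.60), against 21.0% and 20.2% of all genes tested. The difference between guides was called upward for 9 and downward for 2 (14.6% and 14.3% over all genes), with a median of 0.55.

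Transcription factors of the tuft lineage did not follow as a group. Of 12 tested, 4 were higher and 6 lower (14.5% and 13.8% over all genes). The median was -0.11 (0.02 without WT replicate 1, and -0.31 on TPM as deposited). GFI1B, a zinc finger repressor of tuft cells, was at 9.82, 12.5 and 12.9 in EV and 28.3, 17.7 and 19.4 in WT cells (0.82, adjusted p = 0.0178). EHF, an epithelial ETS factor, rose from 5.78 to 23.6 (1.84, adjusted p = 0.000366). SPIB, another ETS factor, rose from 40.5 to 63.1 and TCF7L2, a Wnt effector, from 1.95 to 6.18. ASCL2 was lower in WT cells, at 39.7, 62.4 and 72.8 against 99, 117 and 105 (-0.91, adjusted p = 0.0186). FOXI1, the forkhead factor of ionocytes, was lower too (54.8 in EV, 25.9 in WT, -1.05, adjusted p = 0.00051), as was MYB (-0.64, adjusted p = 0.00934). Under sgRosa, FOXI1 fell by 2.27 and MYB fell by 2.02 on the log2 scale from EV to WT cells. In eicosanoid synthesis, 4 of 9 genes were higher and 2 lower (14.5% and 13.8% over all genes). ALOX5, the 5-lipoxygenase of leukotriene synthesis, was at 6.77, 10.1 and 9.14 in EV and 21.0, 26.8 and 23.1 in WT cells (1.36, adjusted p = 0.00108), and PTGES2 fell from 120 to 69.8.

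The largest falls belonged to other families. FOSL1, the AP-1 subunit Fra-1, was at 108, 90.7 and 91.3 scaled TPM in EV cells and 4.22, 4.04 and 2.79 in WT cells (log2 difference -4.39 ± 0.16, adjusted p = 3.86e-06). PLAU, the secreted protease urokinase, was at 65.4, 57.6 and 62.7 in EV and 2.70, 2.82 and 2.77 in WT cells (-4.06 ± 0.12, adjusted p = 2.28e-06). KRT17, a keratin of basal and injured epithelium, was at 541, 435 and 466 in EV and 47.0, 39.9 and 39.1 in WT cells (-3.48 ± 0.15, adjusted p = 7.65e-06). The largest falls were likewise picked among genes with no overlap between the groups, so their separation was set by the rule. The other 12 included the tight junction protein CLDN6, the matrix protein TGFBI, the kinase NUAK2, the neuronal tubulin TUBB3, the cytokines LIF and IL6, the collagenase MMP13, SERPINB7, thrombospondin 1 (THBS1), the membrane repair protein MYOF and the integrin ITGA3. Log2 differences of the 15 ran from -4.39 to -3.48 (from -4.48 to -3.37 without WT replicate 1), with a largest adjusted p of 3.17e-05.

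Under the control guide most of these genes were low in both lines. In EV and WT cells with sgRosa, 11 of the 15 were not called, 3 were called higher in WT cells and 1 lower (20.2% of all genes tested were called lower there). The 1 was TUBB3, at 25.4 in EV and 1.66 in WT cells under sgRosa (-3.32, adjusted p = 5.41e-07), and its difference between guides did not pass (-0.50, adjusted p = 0.0667). FOSL1 stood at 0.646 and 1.22 under sgRosa, PLAU at 0.424 and 0.455, and KRT17 at 2.03 and 1.55. The difference between guides was -4.84 for FOSL1 (adjusted p = 2.79e-07), -4.11 for PLAU and -3.23 for KRT17. Over all genes, 350 of the 549 that were higher by 2-fold or more under sgPOU2F3 were called higher in WT cells under sgRosa too, 20 were called lower and 179 were not called. Of the 555 that were lower by 2-fold or more, 120 were called lower under sgRosa, 131 higher, and 304 were not called. The first overlap is 63.8% of its list and 12.9% of the genes called higher under sgRosa, and the second is 21.6% and 4.58%.

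**Figure D3:**
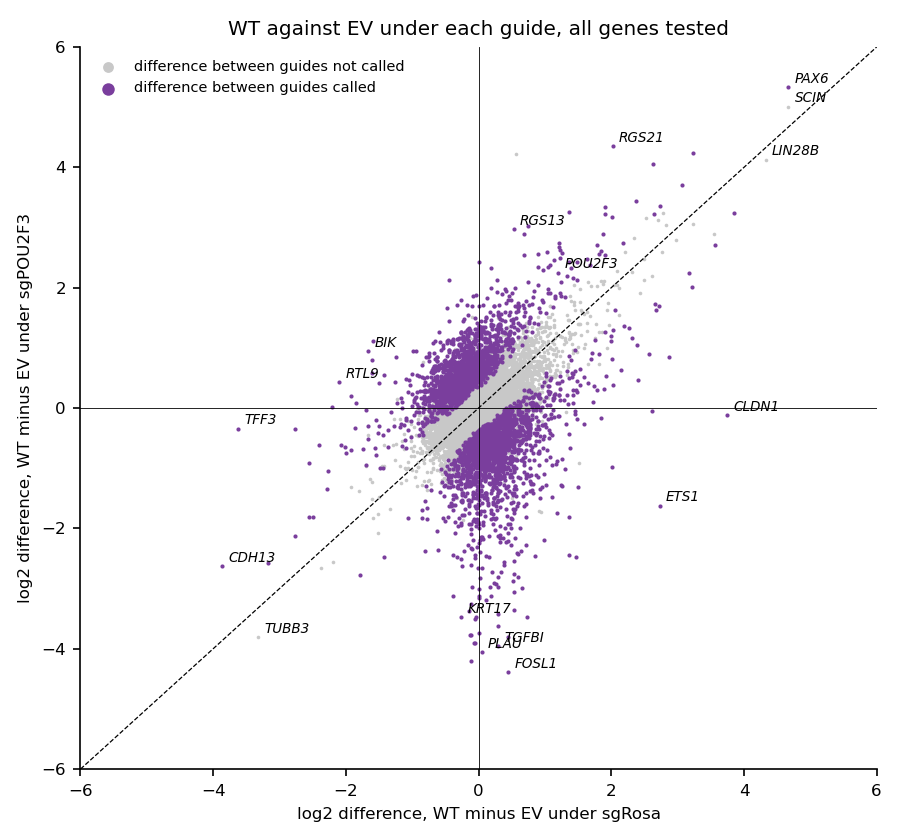
Log2 difference between WT and EV cells under sgPOU2F3 (vertical) against that under sgRosa (horizontal), for the 12944 genes tested; the dashed line marks equality, and purple points are the genes whose difference between guides was called. PAX6, SCIN and LIN28B lie far to the right and near the line, while FOSL1, PLAU and KRT17 lie near 0 on the horizontal axis and between -4.39 and -3.48 on the vertical.

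Among AP-1 factors, which bind DNA as dimers of Fos and Jun proteins, 5 of 11 were lower in WT cells (13.8% over all genes). By limma 0 were higher, also at an unadjusted p under 0.05. The median was -0.73 (-0.44 without WT replicate 1, with 6 lower). FOSL2 fell from 107 ± 30.6 to 14.8 ± 4.77 (SD, n = 3; log2 difference -2.80, adjusted p = 0.00031) and JUN from 73.6 ± 10.4 to 22.2 ± 5.11 (-1.70, adjusted p = 0.000685). JUNB fell from 68.1 to 38.5 and BATF3 from 24.9 to 17.3. Under sgRosa 7 of the 11 were higher in WT cells (21.0% over all genes). The difference between guides was called downward for 8 (14.3% of all genes tested were called downward).

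Targets of YAP and TAZ, the coactivators held back by the Hippo kinases, were lower in WT cells almost throughout. Of 22 tested, 18 were lower (13.8% over all genes), with a median of -1.76 (18 lower, median -1.55, without WT replicate 1). By limma 0 were higher, also at an unadjusted p under 0.05. CYR61, the matricellular protein CCN1, was at 454, 414 and 393 in EV cells and 55.9, 59.8 and 67.7 in WT cells (-2.76 ± 0.14, adjusted p = 1.75e-05). CTGF, its relative CCN2, was at 50.1, 47.7 and 43.6 in EV and 12.3, 15.2 and 20.9 in WT cells (-1.52, adjusted p = 0.000975). Neither gene had overlapping groups. AMOTL2, an angiomotin that retains YAP, fell from 69.2 to 10.9, and NUAK2 from 48.3 to 2.28. Under sgRosa, 8 of the 22 were higher in WT cells (21.0% over all genes), with a median of 0.20. By limma 0 were lower there (2 at an unadjusted p under 0.05). The difference between guides was called downward for 19 (14.3% of all genes tested were called downward).

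In the Hippo pathway itself, 9 of 21 genes were lower and 3 higher (13.8% and 14.5% over all genes), with a median of -0.22. YAP1 was at 41.0, 49.9 and 38.6 in EV and 11.4, 19.2 and 20.8 in WT cells (-1.32, adjusted p = 0.00457), and WWTR1, which encodes TAZ, fell from 7.49 to 2.86 (-1.14, adjusted p = 0.00086). FRMD6, an upstream FERM-domain regulator, fell from 26.8 to 5.24, TEAD2, a DNA-binding partner of YAP, from 186 to 78.9, and NF2 from 31.4 to 15.5. MOB1B, a cofactor of the LATS kinases, rose from 20.2 to 50.0. For TEAD2 and MOB1B the lines also differed under sgRosa (-1.60 and 1.17), and the difference between guides was not called (adjusted p = 0.0705 and 0.752).

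The urokinase system and matrix remodelling formed the second large group of lower genes. Of 25 tested, 19 were lower (13.8% over all genes), with a median of -1.79 (19 lower and 2 higher, median -1.74, without WT replicate 1). By limma 0 were higher (1 at an unadjusted p under 0.05). MMP13 was at 29.9, 27.7 and 28.3 in EV and 1.97, 0.983 and 0.748 in WT cells (-3.77, adjusted p = 1.97e-05). THBS1 was at 145, 161 and 129 in EV and 9.61, 11.1 and 11.8 in WT cells (-3.62, adjusted p = 4.96e-06). LAMB3, a laminin chain of basement membranes, fell from 43.2 to 4.62. MMP13 and THBS1 are among the largest falls, which were picked for having no overlap between the groups. Downward differences between guides were called for 20 of 25 (14.3% over all genes).

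Keratins, the intermediate filaments of epithelia, were lower or unresolved. Of 10 tested, 7 were lower (13.8% over all genes), with a median of -1.37 (9 lower, median -1.38, without WT replicate 1). By limma 0 were higher, also at an unadjusted p under 0.05. KRT80 fell from 31.8 ± 0.447 to 6.22 ± 0.334 (SD, n = 3) and KRT16, which pairs with type II keratins in stressed epidermis, from 17 to 1.27. KRT8, the main simple-epithelial keratin, was at 1064, 799 and 962 in EV and 773, 509 and 481 in WT cells (-0.70, adjusted p = 0.0634), and passed without WT replicate 1 (-0.92, adjusted p = 0.00382). Each of the 4 basal and squamous genes tested was lower, KRT17, KRT16, S100A2 (15 to 0.835) and SFN (108 to 35.7). The defining factor TP63 was under 1 TPM in both groups, and KRT5 was at 0.154 or less. Hair keratins KRT81 and KRT86 share long near-identical stretches, so their values are uncertain.

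Of 17 mesenchymal genes, 10 were lower and 2 higher (13.8% and 14.5% over all genes). The median was -1.11 (12 lower and 3 higher, -1.15, without WT replicate 1). SNAI2, the repressor Slug, was at 43.8, 33.7 and 36.8 in EV and 3.97, 2.49 and 2.07 in WT cells (-3.37 ± 0.20, adjusted p = 3.06e-05). FN1, fibronectin, was at 86.6, 111 and 95.4 in EV and 17.8, 21.8 and 18.5 in WT cells (-2.27, adjusted p = 3.99e-05). VIM, vimentin, was at 115, 103 and 98.0 in EV and 40.8, 37.4 and 51.0 in WT cells (-1.28, adjusted p = 0.000815). TAGLN, an actin-binding protein of smooth muscle, fell from 30.6 to 6.94, and the collagen-binding LUM from 6.79 to 0.225. All of these WT levels lay below those of EV cells, while FN1 and VIM stayed above the 2.02 and 7.07 of EV cells under sgRosa. Of 22 epithelial junction genes, 4 were lower and 1 higher (13.8% and 14.5% over all genes), with a median of -0.21, and 7 were lower without WT replicate 1. CDH1, E-cadherin, was among the lower ones (160 to 78.1, -1.04, adjusted p = 0.00211), as was CLDN4 (9.23 to 2.02), and ESRP1, an epithelial splicing factor, was the higher one (68.3 to 92.7).

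Inflammatory genes that NF-kB can drive were lower in WT cells nearly throughout. Of 27, 25 were lower with or without WT replicate 1 (13.8% and 19.4% over all genes), and the median was -1.26 (-1.31 without it). By limma 0 were higher, also at an unadjusted p under 0.05. IL6 was at 21.6, 18.7 and 20.5 in EV and 0.682, 0.951 and 0.126 in WT cells (-3.78 ± 0.21, adjusted p = 2.28e-05). LIF, a cytokine of the same receptor family, fell from 55.9 ± 6.01 to 3.09 ± 0.771 (SD, n = 3; -3.81). CXCL8, the neutrophil attractant interleukin-8, was at 32.5, 27.7 and 32.7 in EV and 8.03, 5.32 and 4.45 in WT cells (-2.23, adjusted p = 0.000179). IL6 and LIF are among the largest falls, which were picked for having no overlap between the groups. CXCL8 was not picked that way, and its groups did not overlap either. The adhesion molecule ICAM1 fell from 13.5 to 0.668, IL32 from 22.9 to 2.16 and the macrophage factor CSF1 from 8.53 to 1.22. Under sgRosa 7 of the 27 were higher and 4 lower in WT cells, against 21.0% and 20.2% of all genes tested. The difference between guides was called downward for 21 (14.3% of all genes tested).

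Antigen presentation by MHC class I showed smaller falls. Of 18 genes, 6 were lower, or 11 without WT replicate 1 (13.8% and 19.4% over all genes), with a median of -0.35. By limma 0 were higher, also at an unadjusted p under 0.05. PSMB9, a subunit of the immunoproteasome, fell from 7.14 to 2.49 (-1.22, adjusted p = 0.00261), TAPBP, which loads peptides, from 56.1 to 27.8, and TAP2, a chain of the peptide transporter, from 59.2 to 39.1. In the interferon response 8 of 21 genes were lower and 2 higher (13.8% and 14.5% over all genes), with a median of -0.23. IRF1 fell from 40.5 to 12.1 (-1.67, adjusted p = 0.000118) and GBP1, a guanylate-binding protein, from 12.3 to 3.33, while USP18, which removes ISG15, rose from 29 to 45.5.

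Growth signalling was mixed. Of 22 feedback and target genes of ERK, 8 were lower and 5 higher (13.8% and 14.5% over all genes), with a median of -0.26. EPHA2, a receptor for ephrins, fell from 55.1 to 9.28 (-2.45 ± 0.16, adjusted p = 4.3e-05), and the phosphatase gene DUSP5 from 17 to 3.27, whereas ETV5, an ETS factor, rose from 7.63 to 21.8 (1.41). CCND1, cyclin D1, was at 477, 512 and 436 in EV and 174, 213 and 234 in WT cells (-1.20, adjusted p = 0.00196). Under sgRosa 17 of the 22 were higher in WT cells and 2 lower (21.0% and 20.2% over all genes), with a median of 0.71. The difference between guides was called downward for 15 and upward for 2 (14.3% and 14.6% over all genes).

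In the growth factor and insulin-like growth factor list, 10 of 24 were lower and 4 higher (13.8% and 14.5% over all genes). The list median was -0.49 (-0.99 in WT replicate 1, -0.27 in each of its replicates). IGFBP4, which binds insulin-like growth factors, was at 265, 252 and 246 in EV and 16.0, 22.1 and 32.5 in WT cells (-3.43 ± 0.23, adjusted p = 5.17e-05), IGFBP3 fell from 128 to 22.4, and HBEGF, a ligand of the EGF receptor, from 53.6 to 6.5. In the TGF-beta and BMP list, 7 of 24 were lower and 4 higher (13.8% and 14.5% over all genes). The ligand TGFB2 went from 54.7 to 9.11 and the BMP antagonist GREM1 from 27.3 to 3.33. LTBP1, which stores TGF-beta in the matrix, went up from 8.64 to 31.4.

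**Figure D4:**
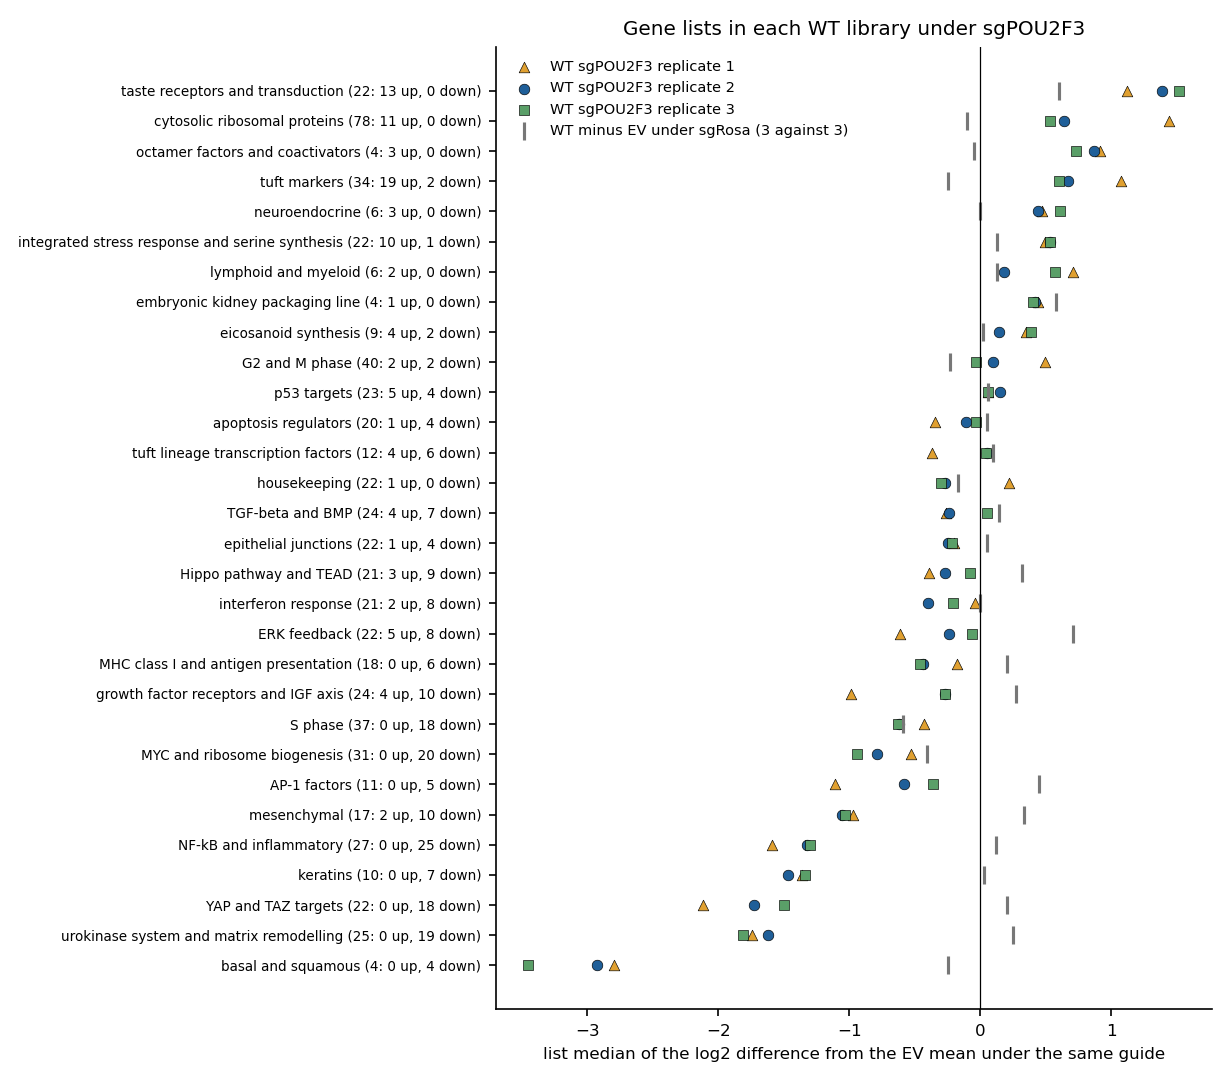
Median log2 difference of each gene list from the EV mean under the same guide, by WT library under sgPOU2F3 (triangle, circle and square) and for the 3 WT against the 3 EV libraries under sgRosa (grey bar); labels give the genes tested and called. Taste genes lie highest (1.12 to 1.52) apart from ribosomal proteins in WT replicate 1 (1.44), and basal and squamous genes lowest (-3.45 to -2.80).

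Genes of growth and division were lower in WT cells at the level of DNA synthesis and ribosome assembly. Of 37 S phase genes, 18 were lower (13.8% over all genes), with a median of -0.53 (31 lower, median -0.61, without WT replicate 1). By limma 0 were higher, also at an unadjusted p under 0.05. MCM4, a subunit of the replicative helicase, was at 88.5, 84.8 and 85.9 in EV and 42.2, 43.6 and 42.1 in WT cells (-1.0 ± 0.11, adjusted p = 0.000627). UHRF1, which maintains DNA methylation at forks, fell from 106 to 40.9. This direction was present under sgRosa as well (median -0.59). There, 34 of 37 were lower in WT cells and 1 higher (20.2% and 21.0% over all genes). The difference between guides was called downward for 5, a share near the 14.3% of all genes tested, and upward for 1 (14.6% over all genes). Of 40 genes of G2 and M phase, 2 were lower and 2 higher, below the 13.8% and 14.5% of all genes tested. Their median of 0.18 turned to -0.03 on TPM as deposited and was 0.00 without WT replicate 1. FOXM1 fell from 103 to 56.1 and CDC25C rose from 21.9 to 43.3. Under sgRosa, 19 of the 40 were lower in WT cells (20.2% over all genes), with a median of -0.23. By limma 0 were higher there, also at an unadjusted p under 0.05. In the MYC and ribosome biogenesis list 20 of 31 were lower (13.8% over all genes), with a median of -0.72. Without WT replicate 1, 25 were lower and 1 higher. With all 6 libraries, by limma 0 were higher (1 at an unadjusted p under 0.05). MYC itself was at 209 to 219 in EV and 179 to 195 in WT cells, which did not pass (-0.19, adjusted p = 0.307). The processing factors RRP9 (40.6 to 13.9) and BOP1 (185 to 71.2) were lower. Under sgRosa, 20 of the 31 were lower in WT cells too (20.2% over all genes), with a median of -0.41. The difference between guides was called downward for 12 (14.3% over all genes).

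Of 78 cytosolic ribosomal proteins, 11 were called higher, a share near the 14.5% of all genes tested, and by limma 0 lower, also at an unadjusted p under 0.05. Their median was 0.88, with 1.44 in WT replicate 1 and 0.64 and 0.53 in its replicates. Without WT replicate 1, 19 were higher and the median was 0.58, and with quantile normalization it was 0.33. RPL13A was at 3465, 2227 and 3083 in EV and 11229, 6619 and 5775 in WT cells (1.39 ± 0.38, adjusted p = 0.0292). Each of the 3 WT libraries held more of its TPM in these genes (25.67% to 33.14%) than any EV library (16.03% to 20.21%). Ribosomal protein genes have processed copies of near-identical sequence, so their values are uncertain. With the trend on transcript length removed from each library, the list median was 0.72. Under sgRosa the median was -0.10 with 1 gene called higher.

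In the integrated stress response and serine synthesis list, 10 of 22 were higher and 1 lower (14.5% and 13.8% over all genes). The median was 0.48 (14 higher, 1 lower, 0.54, without WT replicate 1). PHGDH, the first enzyme of serine synthesis, was at 94.7, 79.2 and 114 in EV and 412, 273 and 259 in WT cells (1.69 ± 0.22, adjusted p = 0.00134). PSAT1, the next enzyme, rose from 50.5 to 116, and the mitochondrial PCK2 from 26.3 to 82.1. ATF4, the transcription factor of the response, was at 298, 236 and 341 in EV and 822, 552 and 476 in WT cells (1.05, adjusted p = 0.0167), and DDIT3 rose from 38.5 to 87.0. Under sgRosa PHGDH was at 206 in EV and 241 in WT cells, and the difference between guides was 1.46 (adjusted p = 0.00352). Of 23 p53 targets, 5 were higher and 4 lower (8 and 5 without WT replicate 1), with a median of 0.05, or -0.15 on TPM as deposited. Of 20 apoptosis regulators, 1 was higher and 4 lower (3 and 6 without WT replicate 1), with a median of -0.11. Over all genes 14.5% were higher and 13.8% lower. Among the p53 targets, TP53INP1, a promoter of autophagy and cell death, rose from 2.46 to 11.6, and GADD45A fell from 88.9 to 42.8. Among the apoptosis regulators, the BH3-only gene BIK rose from 14.6 to 29.4, and the death receptor TNFRSF10A fell from 9.29 to 4.53.

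The difference between guides was tested over all genes in the 12 libraries. It was called for 3743 genes (28.9% of those tested), 1889 upward and 1854 downward (14.6% and 14.3%), for 3922 without WT replicate 1, and for 2474 without EV sgRosa replicate 2. Between the lines under sgRosa alone, 5342 genes differed (41.3%), of which 2723 were higher (21.0%) and 2619 lower (20.2%) in WT cells, but by less: 329 were higher and 106 lower by 2-fold or more (2.54% and 0.819%). A difference between guides of 2-fold or more was called for 449 genes upward (3.47%) and 761 downward (5.88%). CLDN1, a tight junction protein, was at 0.667 in EV and 21.3 in WT cells under sgRosa and at 20.4 and 18.9 under sgPOU2F3 (log2 difference 3.75 under sgRosa and -0.12, adjusted p = 0.642, under sgPOU2F3). TFF3, a secreted trefoil peptide, was at 74.6 in EV and 5.08 in WT cells under sgRosa, and at 45.7 and 37.0 under sgPOU2F3. CDH13, an anchored cadherin, fell under both guides, from 56.1 to 2.91 and from 23.0 to 2.89.

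WT cells under sgPOU2F3 were also set against EV cells under sgRosa, which carried neither the POU2F3 guide nor the cDNA. Line and guide differ together here and cannot be told apart, and the WT libraries are those of the first comparison. 1194 genes differed (9.22% of those tested), 758 higher and 436 lower in WT cells (5.86% and 3.37%). On TPM as deposited the split turned to 272 higher and 349 lower. Without WT replicate 1, 2148 differed, without WT replicate 2 577, and without EV sgRosa replicates 1, 2 and 3 521, 552 and 562. CYR61, at 61.1 in WT cells under sgPOU2F3 and 2.00 in EV cells under sgRosa, was 4.37 higher on the log2 scale (adjusted p = 3.78e-06), beside the -2.76 against EV cells under sgPOU2F3. KRT17 was 3.84 higher (adjusted p = 1.57e-05), beside -3.48. FOSL1 was 1.53 higher (adjusted p = 0.00437), beside -4.39. Of the 22 YAP and TAZ targets, 11 were higher than in EV cells under sgRosa and by limma 0 lower, also at an unadjusted p under 0.05. Of the 34 tuft markers, 7 were higher and 10 lower, with a median of -0.22. KIT was 1.93 lower there (log2 difference -1.93, adjusted p = 0.000124) and GNG13 2.31 lower (-2.31, adjusted p = 0.000124), while POU2F3 was 1.01 higher (adjusted p = 0.0294).

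Markers of cell types were read to check the labelled cells. The 20 tuft markers kept for this purpose, 16 of which were tested, summed to 2175 to 2399 scaled TPM in EV cells and 5472 to 7771 in WT cells under sgPOU2F3, and to 5772 to 6140 in EV cells under sgRosa. These sums include POU2F3, whose RNA in WT cells holds that of the cDNA, so part of their rise is set by the construct. They also include the highly expressed RGS13. Neuroendocrine markers summed to 72.1 to 88.6 in EV and 114 to 149 in WT cells, with 3 of 10 tested and 7 under 1 TPM in each group. In the longer list of that type 3 of 6 tested genes were higher (14.5% over all genes), among them SYT1, a vesicle calcium sensor (12.3 to 31.6). NCAM1 rose from 49.3 to 86.0. Of the 8 mesenchymal markers, 7 were tested, and the sum was 212 to 236 in EV and 67.5 to 78.2 in WT cells under sgPOU2F3, against 13.2 to 14.5 in EV cells under sgRosa. The 5 basal and the 4 endothelial markers were under 1 TPM in every group mean. Lymphoid and myeloid markers summed to 7.05 to 8.78 in EV and 12.7 to 16.3 in WT cells, with CD3E and MS4A1 at 0 in all 12 libraries. CD14 rose from 2.38 to 9.29 (1.59) and from 1.88 to 7.51 under sgRosa (1.56). Markers of the embryonic kidney line commonly used to package lentivirus summed to 11.8 to 17.3 in EV and 36.1 to 37.0 in WT cells, and LIN28B was the 1 of 4 tested that passed. PAX8 was at 3.16 and 5.65 (adjusted p = 0.0517) and passed without WT replicate 1 (0.41, adjusted p = 0.0453), SALL1 and HOXA9 did not pass (adjusted p = 0.666 and 0.833), NEFL was at 0 in all 12 libraries, and the part of such cells in the LIN28B result was not tested. Of 22 housekeeping genes, 1 was higher and by limma 0 lower (2 at an unadjusted p under 0.05), with a median of -0.13. Over all genes 14.5% were higher and 13.8% lower. Without WT replicate 1, 5 were lower and 1 higher, with a median of -0.30.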

How the data were processed

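Poly(A) RNA of NCI-H211 cells was sequenced in 18 libraries, 3 per group, from TRIzol extracts with a TruSeq v2 kit per the labels' protocols. The authors deposited 1 table of TPM per gene, a unit already corrected for transcript length and library total. kallisto and the build hg38 are named per the submitters' processing notes, and the kallisto version is not given in the sources used here. Of 19875 entries, 131 that are dates or name fragments (1.64% to 2.43% of TPM) were left out. 97.7% of the names matched an annotated gene (positions from GENCODE for GRCh38).

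Each library was divided by its median ratio over 12793 genes in all 18 libraries, and log2(scaled TPM + 1) was tested with limma 3.58.1 (R 4.3.3, variance trend, no covariates, two-sided) in the libraries of each comparison. Genes needed a mean of at least 1 TPM in the 6 libraries under sgPOU2F3 (12944 genes), and a call is an adjusted p (Benjamini-Hochberg over all of them) under 0.05. Fold changes are on the log2(scaled TPM + 1) scale, which understates changes of low genes. "Higher", "lower", "rose" and "fell" mean a call from EV to WT.

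Members and gene lists were chosen with earlier results of these data known. Genes were named by rule: POU2F3 and its family, the 15 largest called rises and falls, and up to 5 of each list by p. The 5 largest each way under sgRosa and of the difference between guides were added. The 15 each way had to be called without WT replicate 1 and show no overlap between replicates. They also needed a mean of at least 5 scaled TPM in the higher group, and placeholder symbols were left out. Some of these genes are not reported here. AVIL, SH2D6, KIT, GNG13, PLCB2, TAS2R38, TRPM5, GFI1B, ASCL2, MYB, YAP1, CTGF, CXCL8, KRT8, VIM, CCND1, MYC and ATF4 were added for their role after their values were seen. On simulated data with the spread of the 6 libraries, 54.5% of 200 genes changed 2-fold and 96.5% of 200 changed 4-fold were recovered among 12944, with 2 and 17 false calls. The simulated noise was independent between genes and libraries, without the length trend of WT replicate 1. These rates therefore need not carry over to the real libraries. Alternatives covered pseudocount, filter, scaling, variance model, libraries fitted, transcript length, a replicate block and each library left out. TPM hold no depth, so no counting interval is given.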

Additional observations from a re-analysis of the deposited data

Results flagged for a closer look

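The difference between WT and EV cells was not the same under the 2 guides for 10 named genes, the 5 largest each way by the limma test of that difference, in 3 libraries per group. The first 5 had a more positive difference under sgPOU2F3. TFF3 differed by 3.28 on the log2 scale (adjusted p = 9.3e-05), with -0.34 under sgPOU2F3 (45.7 in EV, 37.0 in WT) and -3.63 under sgRosa (74.6 and 5.08). BIK differed by 2.60 (adjusted p = 4.97e-05), with 0.95 under sgPOU2F3 and -1.66 under sgRosa, where it was at 80.3 in EV and 24.5 in WT cells. For TAS2R60 the value was 2.57 (adjusted p = 2.25e-05), from 2.12 and -0.45. RTL9, a gene derived from a retrotransposon, gave 2.53 (adjusted p = 1.04e-06), from 0.43 and -2.10. RGS13 gave 2.45 (adjusted p = 2.35e-05), from 2.98 and 0.53.

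The other 5 were more negative under sgPOU2F3. FOSL1 had the value -4.84 (adjusted p = 2.79e-07). ETS1, an ETS transcription factor, had -4.35 (adjusted p = 5.34e-08): it was at 19.4 in EV and 5.65 in WT cells under sgPOU2F3 (-1.62), and at 0.422 and 8.39 under sgRosa (2.73). TGFBI had -4.26, LIF -4.25 and ITGA3 -4.20, each with an adjusted p of 1.23e-07. ITGA3 stood at -3.48 under sgPOU2F3 and 0.73 under sgRosa.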

How the results depend on the processing

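The count of 3660 genes that differed between WT and EV cells under sgPOU2F3 became 6347 with 17 libraries in the fit and 7819 with array weights, and ran from 1883 to 4980 when 1 library was left out: 1890, 2295 and 1883 without EV replicates 1, 2 and 3, 2152 without WT replicate 2, and 4980 without WT replicate 1. On TPM as deposited it was 2878 (957 higher, 1921 lower). The 5342 of sgRosa became 1665 with all 18 libraries (3676 to 6489 with 1 left out), and split into 2366 higher and 1261 lower on TPM as deposited. The 3743 of the difference between guides became 2433 on TPM as deposited (777 higher, 1656 lower), 2038 with all 18 libraries and 6172 with array weights (2474, without EV sgRosa replicate 2, to 4881 with 1 left out). The 1194 of WT under sgPOU2F3 against EV under sgRosa became 765 at a mean of at least 5 TPM, 621 on TPM as deposited (272 higher, 349 lower), 3887 with 17 libraries, 4892 with array weights, and 1902 on TPM as deposited without WT replicate 1, an alternative chosen after seeing the data. It was 521, 552 and 562 without EV sgRosa replicates 1, 2 and 3, 577 without WT replicate 2 and 2148 without WT replicate 1. The cause was not tested.

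Signs turned for 5 named genes, which had not passed with the 6 scaled libraries: SALL1 (-0.02 on TPM as deposited), HOXA9 (0.07 with array weights, 0.04 without WT replicate 1, 0.02 also on TPM as deposited), CLDN1 (from -0.28 to 0.04 with 1 library left out, the latter without WT replicate 3), KIT (-0.18 on TPM as deposited, -0.11 with array weights, -0.05 without EV replicate 1, -0.10 without WT replicate 1, -0.14 with both) and GNG13 (0.00 with quantile normalization, from -0.15 to 0.09 with 1 library left out, the latter without WT replicate 2). Of the named genes, 31 lost their call in at least 1 setting and 17 gained one. Same-numbered replicates under sgPOU2F3 correlated at 0.58, 0.63 and -0.42, and the other pairs at -0.74 to 0.61. These values do not settle whether the numbers pair them. With a replicate block 4838 genes passed, and 4630, 3228 and 1660 in the other 3 comparisons. Precision is limited by 3 libraries per group and unknown depth.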

Other observations

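A few genes had large differences that did not pass, with replicates far apart. HIST1H4J was listed at 0 in the 3 EV libraries and at 121, 52.3 and 0 scaled TPM in the WT libraries under sgPOU2F3 (limma, adjusted p = 0.0701). HIST1H4K was at 44.0, 38.4 and 38.7 in EV and 0, 19.4 and 71.1 in WT cells (adjusted p = 0.311). These histone genes encode the same protein and have near-identical transcripts, so their single values are uncertain. PIGY varied within the EV group itself, at 0.265, 7.31 and 57.8, and was at 0.161, 0.923 and 5.36 in WT cells (adjusted p = 0.304).

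The median transcript length of genes called at 2-fold or more was 2144 bases for those higher in WT cells and 2490 for those lower, and 2512 for all genes tested. Over all called genes it was 2464 and 2492, and without WT replicate 1 the order turned, to 2534 for the higher and 2341 for the lower.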
